A study of Caenorhabditis elegans with 6 samples.

Results

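The transient receptor potential (TRP) channel genes examined here are osm-9, ocr-1, ocr-2, ocr-3, ocr-4, trp-1, trp-2, trp-4, trpa-1 and pkd-2 of Caenorhabditis elegans. They were chosen by symbol, all 10 were found among the 41862 features of the deposited table, and all 10 passed the filter on low values. RNA was sequenced from immunoprecipitated neuronal nuclei of larvae synchronised at L1, the stage that hatches from the egg. The 3 control libraries came from strain OH16748, which is wildtype apart from the integrated transgene otIs790, labelled UPN INTACT. With INTACT, nuclei of selected cells carry a tag by which they can be pulled down. The 3 mutant libraries came from strain OH17055, which carries a UPN INTACT transgene and is described as null for ceh-48, ceh-44, ceh-38 and the linked genes ceh-39, ceh-21 and ceh-41, all of the CUT homeobox family. The labels do not say whether the 3 replicates of a group were separate cultures, so p-values measure only the spread between these libraries, which may be technical. Each genotype is represented by a single strain.

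TRP channels are cation channels of the cell membrane, assembled from several subunits, that open in response to chemical, mechanical, osmotic or thermal stimuli or downstream of G proteins and lipids. In the worm they are known above all from ciliated sensory neurons, where the TRPV subunits OSM-9 and OCR-2 sit in the sensory cilia and are needed for avoidance of noxious stimuli and for some olfactory responses. The TRPC channels TRP-1 and TRP-2, the TRPN channel TRP-4, the TRPA channel TRPA-1 and the polycystin PKD-2 belong to other branches of the superfamily. In the WBcel235 annotation 5 of these genes lie on chromosome IV (osm-9, ocr-2, ocr-4, trpa-1 and pkd-2), 2 on III (trp-1 and trp-2), and 1 each on I (trp-4), V (ocr-1) and X (ocr-3).

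The libraries held 15500882 to 20844986 reads, recovered from the normalized counts, and 3 reads correspond to 2.44 to 3.79 normalized counts. Such floors cover counting error only. None was a repeat of another, since over the 6 pairs of replicates the chi-square of their read counts was 22.7 to 95.4 times its degrees of freedom. Less RNA of ceh-38, ceh-48, ceh-41, ceh-39 and ceh-21 was found in each mutant library than in any control, at 57.8%, 44.2%, 34.1%, 2.06% and 1.82% of the control mean. In contrast ceh-44 stood at 176%, so its label as null is not matched by a loss of its RNA. A count of RNA per gene does not test whether an allele is null. Mutant replicate 2 stood apart, with 47.95 normalized counts of ceh-21 and 43.9 of ceh-39 where the other mutant libraries had 0 to 5.06. Without that library osm-9 and ocr-2 were called lower and trp-4 was not. Throughout, "mutant" means a library with that label. The fraction was not purely neuronal. Each of the 30 pan-neuronal markers reached at least 1168 normalized counts in some library, their levels summing to 846348 to 1063677 normalized counts in controls and 418534 to 766386 in mutants, while 10 muscle markers summed to 197963 to 236674 and 228567 to 270697. None of the marker genes of muscle, intestine, epidermis, glia, pharyngeal muscle or germline was at 0 in all libraries. By itself this says little, since only 9101 of the 41862 features were at 0 throughout. The lowest of these markers, in the glia list, reached at most 10.1 normalized counts.

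Levels per length ran over a wide range among the 10 genes, led by the TRPC genes. Normalized counts were divided by the length of all annotated exons, on the assumption that reads were counted over exons, which the labels do not state. In controls trp-2 was highest at 6365 ± 2163 normalized counts per kb (SD, n = 3), followed by trp-1 at 1872 ± 299 and osm-9 at 1344 ± 134 (SD, n = 3 each). The next was ocr-2 at 662 ± 66.2 normalized counts per kb (SD, n = 3). These 4 genes were each apart from their neighbours in the order, with no overlap between libraries.

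Below them, trp-4 at 377 ± 38.4, trpa-1 at 333 ± 35.96, ocr-1 at 301 ± 68.8 and ocr-4 at 295 ± 54.9 normalized counts per kb (SD, n = 3 each) overlapped from neighbour to neighbour, so their order is not resolved. The lowest were ocr-3 at 103 ± 28.3 and pkd-2 at 12.8 ± 5.80 normalized counts per kb (SD, n = 3 each). The same 4 genes led the order in mutants, where trp-2 stood at 6813 ± 3722, trp-1 at 1510 ± 529, osm-9 at 782 ± 88.5 and ocr-2 at 403 ± 17.7 normalized counts per kb (SD, n = 3 each). In mutants trpa-1, ocr-4, trp-4 and ocr-1 overlapped from neighbour to neighbour, between 229 and 267 normalized counts per kb.

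**Figure D1:**
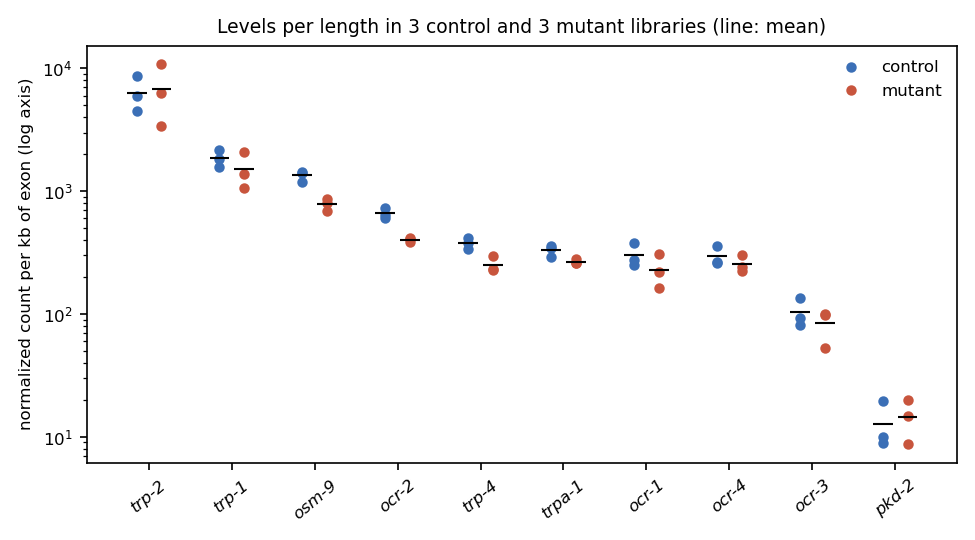
Normalized counts per kb of annotated exon (log axis) for the 10 TRP channel genes, ordered by their control mean, with each point a library and the line the mean of 3. The control means run from 6365 for trp-2 to 12.8 for pkd-2, and trp-4, trpa-1, ocr-1 and ocr-4 lie close together.

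In the mutant libraries osm-9 fell to 58.2%, ocr-2 to 60.9% and trp-4 to 67.1% of the control mean. None rose. The other 7 did not pass the test, and of these trp-2 and pkd-2 had higher mean counts in mutants than in controls. The test was limma on log2(normalized count + 1), with Benjamini-Hochberg adjustment over the 17900 genes tested. By that test 3 of the 10 genes were lower and 0 higher, where 10.5% of all genes tested were called lower and 7.56% higher. At an unadjusted p under 0.05 the counts were also 3 and 0, where 19% of all genes were lower and 15.8% higher. On recovered reads edgeR and DESeq2 each called 3 lower and 0 higher, where edgeR called 9.65% of all genes lower and 8.84% higher and DESeq2 12.4% and 11.2%. Log2 differences below are mutant minus control on the log2(normalized count + 1) scale. The median of the 10 differences was −0.34, beside −0.02 for all genes tested. In bulk nuclei, fewer nuclei of a type and less RNA per nucleus cannot be told apart.

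**Figure D2:**
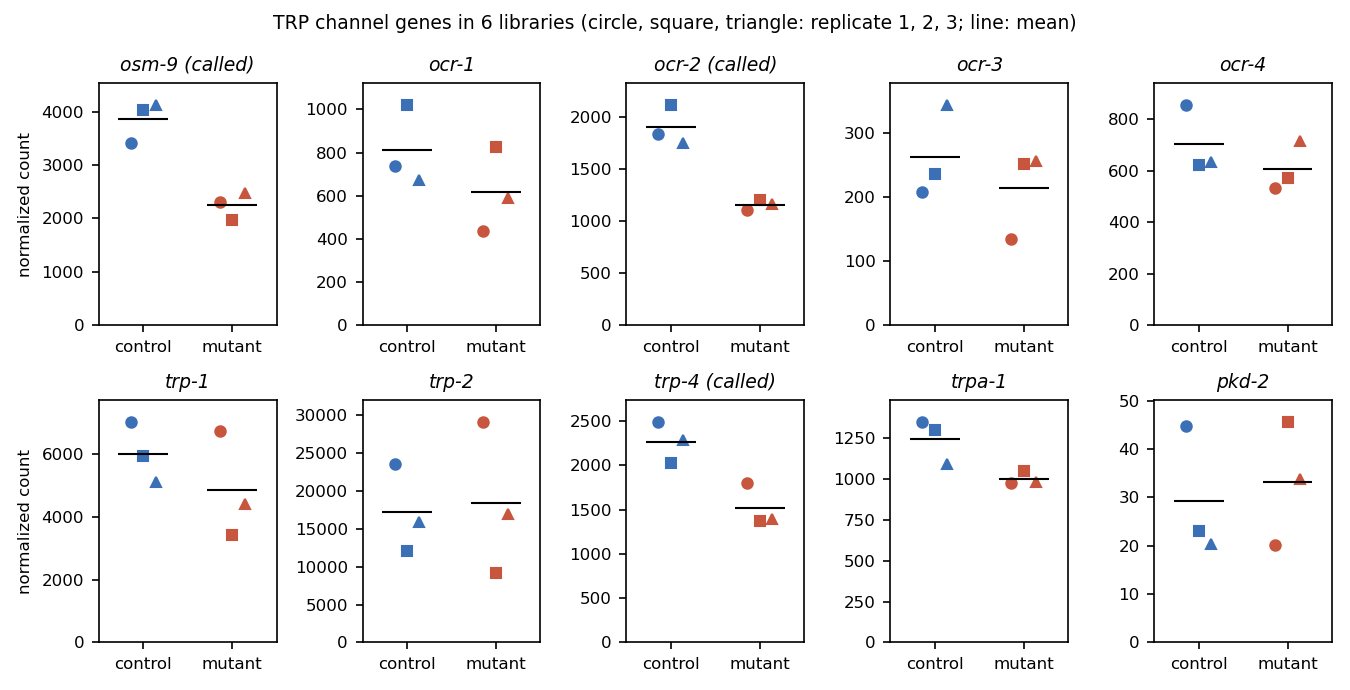
Normalized counts (linear axis from 0) of each TRP channel gene in 3 control and 3 mutant libraries, with the mean as a line and replicates 1, 2 and 3 as circle, square and triangle. Groups do not overlap for osm-9, ocr-2, trp-4 and trpa-1, and for trp-2 mutant replicates 1 and 2 lie at the opposite ends of all 6 values.

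The TRPV genes were taken first. The founding worm member osm-9 had 3424, 4042 and 4128 normalized counts in control replicates 1, 2 and 3, and 2300, 1971 and 2472 in mutant replicates 1, 2 and 3. Every mutant library was below every control library. The log2 difference of osm-9 was −0.78 (SE 0.17) with a limma adjusted p of 0.0120. The call was lost without control replicate 2 or control replicate 3 (limma adjusted p 0.0536 and 0.0549), with differences of −0.75 and −0.73.

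OCR-2 is the subunit that acts with OSM-9 in several sensory neurons, each needing the other to reach the cilium. Its gene had 1833, 2114 and 1752 normalized counts in the controls and 1102, 1203 and 1165 in the mutants. The groups were again apart, and the mutant libraries were close to each other. The log2 difference of ocr-2 was −0.71 (SE 0.15) with a limma adjusted p of 0.0137. Without control replicate 2 or mutant replicate 3 the call was lost (limma adjusted p 0.0628 and 0.0584).

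Since OSM-9 and OCR-2 act together, their ratio was compared within each library. The log2 ratio of osm-9 to ocr-2 was 1.02 ± 0.18 in controls against 0.95 ± 0.21 in mutants (SD, n = 3 each). The difference of −0.07 was smaller than the SD of either group (exact two-sided permutation p 0.7, also 0.7 after Benjamini-Hochberg adjustment over 3 ratios). Its direction turned, to 0.03 without control replicate 3 and to 0.049 without mutant replicate 2. The smallest p this design allows is 0.1.

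The other TRPV genes did not pass the test. OCR-1 is found with OCR-2 in the AWA and ADL sensory neurons, and its gene had 738, 1020 and 672 normalized counts in controls and 435, 824 and 588 in mutants. The groups overlapped, with mutant replicate 2 above control replicates 1 and 3. The log2 difference of ocr-1 was −0.42 (95% interval −0.99 to 0.15, limma adjusted p 0.267). D1054.1, which overlaps ocr-1 on the opposite strand, had 85.9 to 129 normalized counts. The log2 ratio of ocr-1 to ocr-2 was −1.25 ± 0.17 in controls against −0.96 ± 0.40 in mutants (SD, n = 3 each; exact two-sided permutation p 0.3, adjusted 0.6).

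Of ocr-3, reported from rectal gland cells rather than sensory neurons, the controls held 208, 236 and 344 normalized counts and the mutants 135, 251 and 256. Mutant replicate 1 was the lowest library, and the other mutants fell inside the control range. The log2 difference of ocr-3 was −0.32 (95% interval −0.98 to 0.34, limma adjusted p 0.474). For ocr-4, known from the OLQ mechanosensory neurons of the head, values were 856, 623 and 635 in controls and 535, 572 and 718 in mutants. Here mutant replicate 3 was above control replicates 2 and 3, and the log2 difference was −0.21 (95% interval −0.65 to 0.23, limma adjusted p 0.481).

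TRP-1 and TRP-2 are the TRPC channels of the nervous system, the branch that opens downstream of phospholipase C. The controls had 7000, 5922 and 5086 normalized counts of trp-1 and the mutants 6718, 3410 and 4397. Mutant replicate 1 lay inside the control range, while the other mutant libraries were below all of them. The log2 difference of trp-1 was −0.36 (95% interval −0.91 to 0.20, limma adjusted p 0.336). Without mutant replicate 1 it was −0.62 and passed (limma adjusted p 0.0494).

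Among the 10 genes trp-2 varied most between libraries, from 23521, 12050 and 15928 normalized counts in controls to 29038, 9105 and 16980 in mutants. The mutant libraries held both the highest and the lowest value. The mean over mutants was 1.07 times that over controls, while the log2 difference was −0.0026 (95% interval −0.88 to 0.87, limma adjusted p 0.997). The log2 ratio of trp-1 to trp-2 was −1.47 ± 0.39 in controls against −1.83 ± 0.36 in mutants (SD, n = 3 each; exact two-sided permutation p 0.4, adjusted 0.6).

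TRP-4 is the worm counterpart of the mechanotransduction channel NOMPC and is known from the dopaminergic neurons and from DVA and DVC. The controls had 2486, 2025 and 2280 normalized counts of trp-4 and the mutants 1796, 1368 and 1395. No mutant library reached the lowest control. The log2 difference was −0.58 (SE 0.17) with a limma adjusted p of 0.0438. This call lay close to the threshold and was lost under equal totals, centring on the median gene, no filter and no variance trend (limma adjusted p 0.0753, 0.0862, 0.0650 and 0.107). It was also lost when any one library other than mutant replicate 1 was left out, with limma adjusted p from 0.0771 to 0.151.

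TRPA-1, a channel of head sensory neurons that also acts outside the nervous system in the response to cold, showed a smaller difference. Its gene had 1349, 1300 and 1095 normalized counts in controls and 978, 1048 and 981 in mutants. The groups did not overlap, but the nearest libraries were 1095 and 1048. The log2 difference of trpa-1 was −0.31 (95% interval −0.66 to 0.04, limma adjusted p 0.192), so it did not pass. The noncoding RNA C29E6.11, inside trpa-1 on the same strand, had 101 to 206 normalized counts. In all 4 of the 10 genes had every mutant library below every control library (osm-9, ocr-2, trp-4 and trpa-1), where 20.4% of all genes tested did.

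PKD-2, a polycystin of the TRPP branch, is known from the cilia of male-specific neurons, where it acts in mating. Its gene was the lowest of the 10, at 44.6, 22.9 and 20.4 normalized counts in controls and 20.2, 45.5 and 33.8 in mutants, all above 3 reads. The groups overlapped over nearly their whole range, and the log2 difference was 0.18 (95% interval −0.80 to 1.16, limma adjusted p 0.792).

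**Figure D3:**
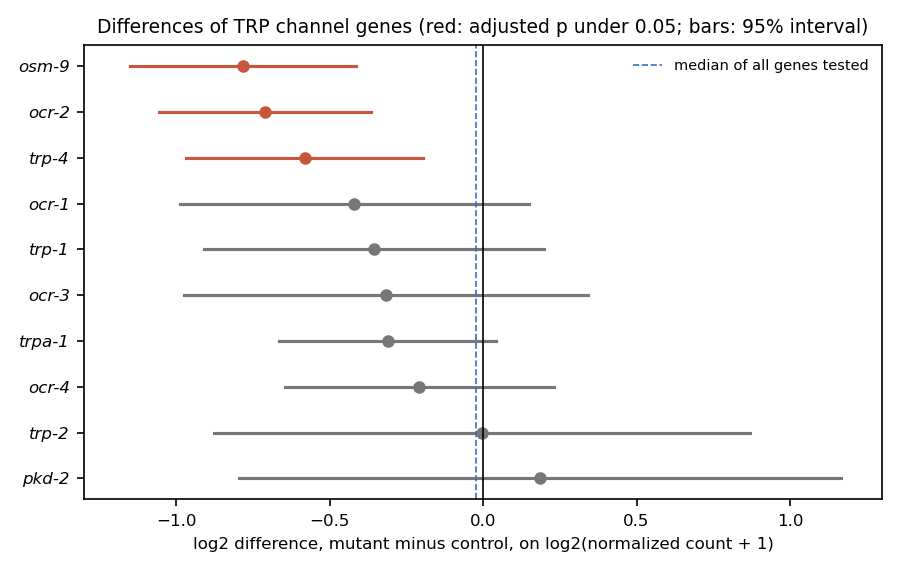
Log2 difference between mutant and control libraries, with its 95% interval, for each TRP channel gene, ordered by size, with those past an adjusted p of 0.05 in red. The intervals of osm-9, ocr-2 and trp-4 lie below 0, those of the other 7 include 0, and the dashed line marks the median of all genes tested at −0.02.

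The pan-neuronal marker list also stood lower in the mutant libraries, so each difference was set against it. The list averaged 13.50 on the log2 scale in controls and 12.96 in mutants, a difference of −0.54, with 8 of 30 genes called lower and 0 higher by limma, where 10.5% and 7.56% of all genes were. At an unadjusted p under 0.05, 15 and 0 were, where 19% and 15.8% of all genes were. Its genes did not move as one. Their log2 differences ran from −1.28 for cla-1 to 0.26 for unc-26, with 26 of 30 negative. The mean of the list therefore does not stand for each neuronal gene. The list of 22 cilia genes had a difference of −0.58 on the same scale. Centring each library on the mean of a list moves every log2 difference by the same amount, up by 0.54 for the pan-neuronal and 0.58 for the cilia list, and changes the spread between libraries gene by gene. Relative to the pan-neuronal list osm-9 differed by −0.24 (95% interval −0.75 to 0.27), ocr-2 by −0.17 (−0.76 to 0.42) and trp-4 by −0.04 (−0.47 to 0.39). Relative to the cilia list these differences were −0.21 (−0.60 to 0.19), −0.13 (−0.48 to 0.22) and −0.0033 (−0.39 to 0.38). None of the 10 genes passed the limma test on either scale. At an unadjusted p under 0.05, 0 were lower on both scales, and 1 (trp-2) was higher on the pan-neuronal scale, at 0.54 (95% interval 0.0067 to 1.07). At that unadjusted threshold 4.94% of all genes were lower and 33.4% higher on the pan-neuronal scale, and 5.47% and 43.3% on the cilia scale. Of all genes tested, 2.26% were lower and 15.9% higher by limma on the pan-neuronal scale, and 3.78% and 33.7% on the cilia scale. The differences of ocr-1, ocr-3, ocr-4, trp-1 and trpa-1 were negative as deposited and positive on both list scales, and that of pkd-2 was positive on all 3.

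The 2 scales changed the spread between replicate libraries in different ways. For trp-1 the SD within groups was 0.39 as deposited and 0.15 relative to the pan-neuronal list, and for trp-2 it was 0.68 and 0.40, all in log2 units. For trp-4 it was 0.19 and 0.14. These 3 were the only members whose spread became smaller on the pan-neuronal scale. For ocr-2 the SD rose from 0.11 to 0.37, for osm-9 from 0.16 to 0.31 and for trpa-1 from 0.12 to 0.33. Relative to the cilia list the SD was 0.11 for ocr-2, 0.20 for osm-9 and 0.07 for trpa-1. On that scale 6 of the 10 members had a smaller spread than as deposited. These SDs are descriptions over 3 libraries a group, without a test.

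**Figure D4:**
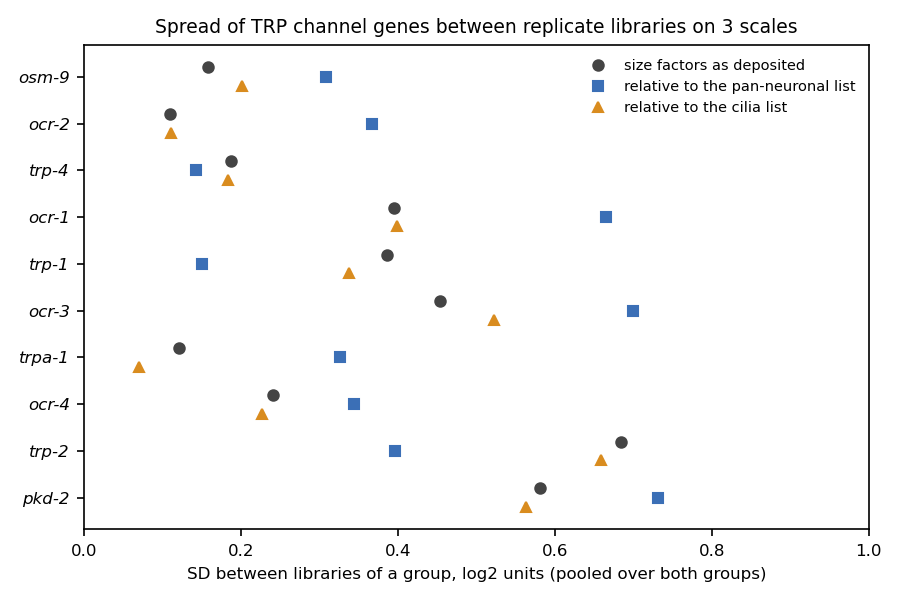
SD between libraries of a group, pooled over both groups and in log2 units, for each TRP channel gene on 3 scales. The pan-neuronal scale narrows trp-1 (0.39 to 0.15), trp-2 (0.68 to 0.40) and trp-4 (0.19 to 0.14) and widens the other 7.

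Genes known to act with these channels were then examined. The partner list of 29 genes held G protein signalling, trafficking, lipid and phospholipase genes, the cyclic nucleotide-gated channel, polycystin partners and TRPA-1 effectors. Of the 28 that passed the filter on low values (cwp-1 did not), 14 were lower, 1 was higher and 13 did not pass the limma test, where 10.5% and 7.56% of all genes were called lower and higher. The median log2 difference of the 28 was −0.52. In sensory G protein signalling, rgs-3, a regulator of G protein signalling, changed from 3029 ± 26.7 to 1135 ± 162 normalized counts (SD, n = 3 each), with a log2 difference of −1.43 (limma adjusted p 0.000714). The G protein alpha subunit gpa-3 went from 3233 ± 385 to 1288 ± 157 (SD, n = 3 each; limma adjusted p 0.00118). ODR-3, the alpha subunit that acts upstream of OSM-9 in AWA and ASH, had its gene at 3861 ± 322 and 1947 ± 289 normalized counts (SD, n = 3 each; limma adjusted p 0.00459). The ASH osmosensory gene osm-10 fell to 54.8% of the control mean (limma adjusted p 0.00790).

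A pair of genes named for co-expression with the polycystins in males, cwp-5 and cwp-4, were called lower. Whether their differences departed from that of pkd-2 was not tested. Of the other polycystin partners, lov-1, klp-6, cil-7 and stam-1 did not pass (limma adjusted p 0.707, 0.459, 0.937 and 0.0577). They stood at 195%, 83.2%, 100% and 69.8% of the control mean, with lov-1 low at 14.5 normalized counts in controls. They are given after their values were seen. The levels of cwp-5 were 1482 ± 199 in controls and 478 ± 78.7 normalized counts in mutants (SD, n = 3 each), a log2 difference of −1.64 (limma adjusted p 0.000720). For cwp-4 the levels were 574 ± 110 and 245 ± 7.23 normalized counts (SD, n = 3 each; limma adjusted p 0.00328), but mlk-1, on the opposite strand of the same locus, averaged 2971 over the 6 libraries, and the use of strand in counting is not stated. The 1 partner that rose was fat-3, a fatty acid desaturase of the polyunsaturated lipid pathway that feeds OSM-9 signalling, from 518 ± 190 to 1097 ± 260 normalized counts (SD, n = 3 each), with a log2 difference of 1.12 (limma adjusted p 0.0207). It is named because it was the only one, after its value was seen.

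Cilia carry the TRPV channels, and of 22 genes for building them 10 were lower, 0 higher and 12 did not pass the limma test, where 10.5% of all genes were lower and 7.56% higher. At an unadjusted p under 0.05 the counts were 12 and 0, where 19% and 15.8% of all genes were. The lower calls were 12 with the replicate block, 9 with edgeR and 12 with DESeq2, where 15.2%, 9.65% and 12.4% of all genes were lower, and the higher calls were 0 in each. All 22 differences were negative as deposited, with a median of −0.51. Strand use in counting is not stated, and daf-10, dyf-5 and osm-6 overlap more abundant genes on the opposite strand. These are flp-1, ppfr-1 and R31.2, with means of 13061, 10759 and 920 normalized counts against 1992, 1049 and 619. None of these cilia genes was called, but all count in the mean used as the cilia scale. The kinesin-II subunit gene kap-1 changed from 744 ± 20.98 to 132 ± 38.7 normalized counts (SD, n = 3 each), with a log2 difference of −2.53 (limma adjusted p 0.000237). The BBSome gene bbs-1 fell to 47.4% of the control mean (limma adjusted p 0.00775). The intraflagellar transport genes dyf-2, dyf-1 and osm-5 fell to 56.9%, 61.5% and 62.9%, and the dynein heavy chain gene che-3 to 59.6% (limma adjusted p 0.0148, 0.0172, 0.0221 and 0.0236). These 6 are the cilia genes with the smallest adjusted p, and the whole list ran from 17.7% of the control mean for kap-1 to 98.1% for bbs-2, an end of the range chosen after its value was seen.

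Identity genes of neurons that carry these channels were counted in the same way. Of 17, 2 were lower, 0 higher and 15 did not pass the limma test, with a median log2 difference of −0.56. With 10.5% of all genes called lower, 2 of 17 is near the background. At an unadjusted p under 0.05, 7 were lower and 0 higher, where 19% and 15.8% of all genes were, and edgeR and DESeq2 also called 2 and 0. With replicate number as a block 6 of 17 were lower, where 15.2% of all genes were. Without mutant replicate 1 the count was also 6, where 14.1% of all genes were. The chemoreceptor gene sre-1 of ADL changed from 445 ± 114 to 69.8 ± 14.6 normalized counts (SD, n = 3 each), with a log2 difference of −2.65 (limma adjusted p 0.000294). The diacetyl receptor gene odr-10 of AWA went from 3076 ± 578 to 1080 ± 188 (SD, n = 3 each), a log2 difference of −1.51 (limma adjusted p 0.00134). The AWA nuclear receptor gene odr-7 had means of 94.6 and 50.7 normalized counts and did not pass (limma adjusted p 0.0798).

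Other genes of the TRP superfamily outside the 10 were also counted. Of 7 (gon-2, gtl-1, gtl-2, ced-11, cup-5, trpa-2 and spe-41), 0 were lower, 1 was higher and 6 did not pass the limma test, and the median log2 difference was 0.03, where 10.5% of all genes were lower and 7.56% higher. At an unadjusted p under 0.05, 1 was lower and 1 higher, where 19% and 15.8% of all genes were, and edgeR and DESeq2 also called 0 lower and 1 higher. The TRPC gene spe-41, known from sperm, rose from 28.4 ± 5.26 to 100.4 ± 16.97 normalized counts (SD, n = 3 each), with a log2 difference of 1.79 (limma adjusted p 0.00381). Of the 7 germline markers, 6 of which passed the filter, 1 was higher and 1 lower by limma. At an unadjusted p under 0.05, 3 were higher and 1 lower. The median log2 difference of the 6 was 0.68, with 1 of them negative. Summed levels of the 7 germline markers were 507 to 589 normalized counts in controls and 733 to 1005 in mutants. Their part in the spe-41 result was not tested. The mucolipin gene cup-5 and trpa-2 stood at 71.8% and 79.0% of the control mean without passing (limma adjusted p 0.0845 and 0.211).

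**Figure D5:**
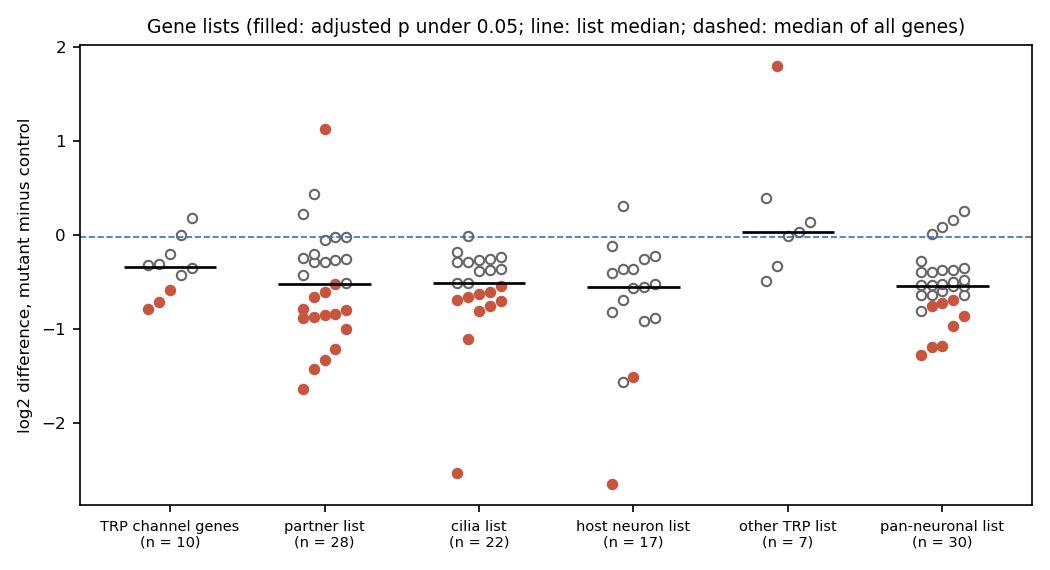
Log2 difference between mutant and control libraries for every tested gene of 6 lists, with called genes filled, the list median as a line and the median of all genes dashed. The medians are −0.34 for the TRP channel genes, −0.52 for partners, −0.51 for cilia genes, −0.56 for host neuron genes, 0.03 for other TRP genes and −0.54 for pan-neuronal genes.

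Markers of other tissues were read beside these lists. Of all genes tested 10.5% were lower and 7.56% higher by limma, and 19% and 15.8% at an unadjusted p under 0.05. Of 10 muscle markers 0 were lower and 1 higher, and of 9 intestine markers 0 and 0 were, by limma (at an unadjusted p under 0.05, 0 and 1, and 1 and 1). Of 7 epidermis and 8 glia markers tested, 1 each was lower and 0 higher (unadjusted, 1 and 1, and 2 and 0). Summed glia markers were 1434 to 2213 normalized counts in controls and 995 to 1483 in mutants, and summed epidermis markers 1263 to 2319 and 1599 to 3506. The 5 pharyngeal muscle markers summed to 22300 to 34406 normalized counts in controls and 43872 to 54631 in mutants, with no overlap. By limma 0 of these were lower and 2 higher, and at an unadjusted p under 0.05, 0 and 3. Their part in the differences of the TRP channel genes was not tested.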

How the data were processed

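The deposited table holds a signal, gene counts divided by a size factor per sample, normalized by the authors with DESeq2, per the table's name. STAR, featureCounts and DESeq2 are named in the submitters' processing notes. The build, annotation, strand setting and treatment of multi-mapping reads are not given in the sources used here, and libraries were made with a Tecan kit, per the labels. Dividing each library by its smallest step gave whole reads for 100% of values (tolerance 0.01 reads).

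Limma 3.58.1 in R 4.3.3 was run on log2(normalized count + 1), fitting only group, with a mean-variance trend. Benjamini-Hochberg adjustment covered the 17900 genes with a mean of at least 10, at a threshold of 0.05. The pseudocount of 1 understates the change of low genes. Ratios within libraries were compared by exact permutation tests. Each gene's difference and each count of calls was recomputed with another pseudocount (0.5 or 5) or filter (none, or a mean of 50), with quantile normalization or equal totals, and centred on the median gene, the pan-neuronal list or the cilia list. It was also recomputed with a replicate block, with edgeR 4.0.16 and DESeq2 1.42.0 on the recovered reads, without a trend, at a threshold of 0.01 and with each library left out. A mean of 50 leaves out pkd-2. The ratios were recomputed with the other pseudocounts, paired by replicate number and with each library left out. The scripts were tested on simulated data.

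Titles give both groups replicate numbers 1, 2 and 3. Across genes, departures from the group mean correlated between same-numbered libraries at 0.25, 0.20 and 0.15. The numbers were taken to pair the libraries in the replicate block and the paired ratios. Correlations between differently numbered libraries are not given here. Departures from a group mean cancel within the group, so positive values alone do not show that the numbers mark shared batches. The main fit and the permutation tests did not use this pairing. Over all genes tested the block gave 2719 lower calls, against 1886 in the main fit.

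The members and lists were chosen with earlier results of these data known. All members are given. From the partner, host neuron, cilia and other TRP lists, the genes past the threshold are named, at most 6 by adjusted p, or, where fewer than 3 passed, the 3 with the smallest. Exon lengths come from the Ensembl release 115 annotation of WBcel235, in which all 10 symbols matched, as did 96.0% of the table's symbols there or in a list of gene names.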

Additional observations from a re-analysis of the deposited data

How the results depend on the processing

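Of the 20 alternatives, 15 can move a gene's difference, while the filters, the replicate block, the trend and the threshold alter only its test. The differences of osm-9, ocr-2 and trp-4 were negative in all 15, and were called in 15, 15 and 8 of the 20. Those of ocr-1, ocr-3, ocr-4, trp-1 and trpa-1 were negative in 13 of 15, the exceptions being the 2 list scales, that of trp-2 in 6 and that of pkd-2 in 2. The number of TRP channel genes called lower by limma was 0 on the pan-neuronal scale, 0 on the cilia scale and 0 at an adjusted p of 0.01 (where 3 were lower at an unadjusted p under 0.05, as were 19% of all genes), and ran from 0 to 4 across fits that each left out 1 library. It was 0 without control replicate 2, 1 without control replicate 3 and 1 without mutant replicate 3, with 3 lower at an unadjusted p under 0.05 in each, where 15.2%, 15.9% and 15.6% of all genes were. The count of higher genes was 0 in every alternative. The replicate block, based on the pairing by replicate number, gave 3 lower and 0 higher, where 15.2% and 11.1% of all genes were. It changed no call among the 10 genes (limma adjusted p 0.00565 for osm-9, 0.00728 for ocr-2 and 0.0156 for trp-4). At an unadjusted p under 0.05 the block gave 4 lower and 0 higher, where 21.9% and 18.5% of all genes were. The added gene was ocr-1, at −0.42. Its interval in the block fit, −0.80 to −0.04, left out 0, but it did not pass (limma adjusted p 0.0954). The count that the block moved past 1.5 times was that of the host neuron list, from 2 to 6.

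Over all genes tested, lower calls were 405 on the pan-neuronal scale, 677 on the cilia scale and 710 at 0.01, against 1886. Higher calls were 2846, 6029 and 397 there and 2118 under equal totals, against 1353. Lower calls were 58.2% of all calls as deposited and 39.1% under equal totals, which moved the median gene up by 0.17 log2. Leaving out 1 library gave 870 to 2515 lower and 543 to 1603 higher genes.

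Shares of all genes called also changed with the setting. Lower calls were 2.26% and 3.78% on the pan-neuronal and cilia scales, 7.25% without a trend and 3.97% at 0.01. They were 7.58% under equal totals, 8.6% centred on the median gene and 4.86% to 14.1% with 1 library left out. Higher calls were 15.9%, 33.7%, 5.39% and 2.22% in the first 4 of these, and 3.03% to 8.96% with 1 library left out. In the partner list, with 28 genes tested, lower calls were 2 and 4 on the pan-neuronal and cilia scales, 8 without a variance trend, 6 at 0.01, and 6 to 13 with 1 library left out. Higher calls there were 2, 2, 0, 0 and 0 to 1. In the cilia list lower calls were 5 under equal totals, 5 centred on the median gene, 1 and 1 on the list scales, 3 without a trend, 2 at 0.01, and 2 to 11 with 1 library left out. Its higher calls were 1 on its own scale. That scale subtracts the mean of these same genes, so the counts of the cilia list on it were largely fixed in advance. They are no check on that list. The host neuron list had 2 to 6 lower calls with 1 library left out. The other TRP list had 3 higher calls on the cilia scale, and 0 to 1 lower calls with 1 library left out. For none of these was the cause tested.

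The difference in the osm-9 to ocr-2 ratio ran from −0.14 to 0.049 with 1 library left out, so its direction turned. That of ocr-1 to ocr-2 ran from 0.09 to 0.48 and that of trp-1 to trp-2 from −0.56 to −0.13. Paired by replicate number the ratios differed by −0.07, 0.29 and −0.35 (exact sign-flip p 0.75, 0.5 and 0.25, the last the smallest possible). Depth limited pkd-2 most, at 20.2 to 45.5 normalized counts.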
